A study of Mus musculus with 6 samples.

Results

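*Snorc*, *Ucma*, *Cnmd*, *Scrg1*, *Cytl1*, *Mia* and *Ostn* are 7 genes for small secreted or membrane proteins of cartilage, and they were described across digits in a dish (DID) cultures of the mouse. They were chosen by name, from earlier results on these libraries, as genes that appear late in the cultures, so their levels by day are given as a description with no test. All 7 were found among the 32286 genes of the count tables. DID cultures are dissociated mesenchyme cells of the distal forelimb of E11.5 embryos that reassemble into digit-like elements in a dish. In every group the cells came from wildtype CD-1 embryos whose limb buds were pooled, and the groups differ in the day of culture. Cultures were taken at Day 2, Day 7 and Day 10, with 2 independent DID cultures, replicates A and B, at each day, and each culture gave 1 single-cell library. Because limb buds were pooled, the spread between replicates is that between cultures, not between embryos.

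Cartilage is built by chondrocytes, which lay down a matrix of type II, IX and XI collagen and of the large proteoglycan aggrecan. In the growth plate, dividing chondrocytes stop cycling, switch on the signal *Ihh* and then enlarge into hypertrophic cells that make *Col10a1*. The 7 genes belong to this lineage in different ways. *Snorc* is a small membrane proteoglycan of chondrocytes, and *Ucma* is a secreted, vitamin K-dependent protein named for the upper zone of the growth plate, where resting cells lie. *Cnmd* (chondromodulin) is released from a membrane precursor and keeps blood vessels out of cartilage. *Mia*, also known as cartilage-derived retinoic acid-sensitive protein, is secreted by chondrocytes and by melanoma cells. *Cytl1* is a small secreted protein of chondrogenic cells, and *Scrg1* is a small secreted, cysteine-rich protein. *Ostn* (osteocrin) is a secreted peptide that binds *Npr3*, the receptor that clears natriuretic peptides.

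In GRCm38 coordinates, *Snorc* lies on chromosome 1 from 87470271 to 87475482 on the plus strand. *Ucma* is on chromosome 2 from 4976122 to 4985748 on the plus strand, and *Cnmd* is on chromosome 14 from 79637690 to 79662170 on the minus strand. *Scrg1* is on chromosome 8 from 57455923 to 57477585, and *Cytl1* is on chromosome 5 from 37735519 to 37739820, both on the plus strand. *Mia* is on chromosome 7 from 27179742 to 27181157 on the minus strand, and overlaps *Gm21983*, a gene of the same strand that is not analysed here. *Ostn* is on chromosome 16 from 27307489 to 27351212 on the plus strand and overlaps an antisense gene, *Gm32312*, that has its own row. All 7 are annotated as protein-coding genes, and they lie on 7 different chromosomes.

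The RefSeq promoter table for GRCm38.p6 matched 4 of the 7 genes, *Ucma*, *Cnmd*, *Cytl1* and *Mia*. The 250 bases before the start of each are shown because these genes differ in their Day 2 level as a share of their Day 7 level. They let a reader set the gene with the highest such share (*Cytl1*) beside that with the lowest (*Ucma*). The time of onset itself was not observed. They are chr2:4975872-4976121 on the plus strand for *Ucma*, chr14:79662184-79662433 on the minus strand for *Cnmd*, chr5:37735269-37735518 on the plus strand for *Cytl1* and chr7:27181150-27181399 on the minus strand for *Mia*. Each is written 5′ to 3′ on the strand of its gene, and capitals mark the RUNX core ACCACA.
Ucma: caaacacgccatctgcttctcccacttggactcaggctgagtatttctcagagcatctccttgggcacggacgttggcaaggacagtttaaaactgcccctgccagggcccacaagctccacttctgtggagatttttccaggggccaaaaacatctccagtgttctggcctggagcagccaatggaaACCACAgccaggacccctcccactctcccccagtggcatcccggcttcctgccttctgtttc
Cnmd: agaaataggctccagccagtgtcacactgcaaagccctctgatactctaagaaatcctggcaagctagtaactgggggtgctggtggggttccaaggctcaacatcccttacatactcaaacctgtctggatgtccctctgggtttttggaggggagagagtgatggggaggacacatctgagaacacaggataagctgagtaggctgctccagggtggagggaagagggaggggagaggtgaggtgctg
Cytl1: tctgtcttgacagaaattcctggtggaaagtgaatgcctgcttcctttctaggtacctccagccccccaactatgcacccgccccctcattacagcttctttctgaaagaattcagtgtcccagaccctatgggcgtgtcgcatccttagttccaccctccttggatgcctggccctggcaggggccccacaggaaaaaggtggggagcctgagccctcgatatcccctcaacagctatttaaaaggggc
Mia: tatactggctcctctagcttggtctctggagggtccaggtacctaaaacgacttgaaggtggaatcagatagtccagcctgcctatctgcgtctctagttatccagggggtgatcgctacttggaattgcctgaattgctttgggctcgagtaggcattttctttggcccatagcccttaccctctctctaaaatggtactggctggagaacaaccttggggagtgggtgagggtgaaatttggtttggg
The 3 motifs searched on both strands were the SOX cores ACAAAG and ACAATG and the RUNX core ACCACA. The RUNX core was found once, in *Ucma*, from 62 to 57 bases before the start, and 14.0% of the 32851 promoter windows in the table hold it. Neither SOX core occurs in the 4 windows, against 16.5% and 10.7% of all windows. The G and C content was 56.4% for *Ucma*, 54.0% for *Cnmd*, 54.8% for *Cytl1* and 50.4% for *Mia*.

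The libraries held 9448 to 16486 cells after the limits on cell quality, 72099 in all, with 178022112 to 260245417 UMIs per library and a median of 3871 to 24197 UMIs per cell. Day 2 replicate B was the shallowest, with 41.4% of its cells under 3000 UMIs. Any pair of libraries shared between 24 and 67 cell barcodes. The cell types were checked with marker lists. Cells were called cartilage-gene-high where *Col2a1*, *Col9a1*, *Col9a2*, *Col9a3*, *Acan* and *Hapln1* together took at least 5000 CPM, the counts of the cell scaled to a fixed total, and these were 760 and 667 cells (replicates A and B) at Day 2, 9559 and 7369 at Day 7, then 3730 and 3364 at Day 10. This class is a range of a score and not a cell type, and 1941 to 4105 cells per library lay between 2500 and 10000 CPM, close to the limit. Summed myogenic markers took 1.42 to 28.1 CPM of the pooled UMIs of class cells against 4.01 to 568 in those of the other cells, immune markers 0 to 14.4 against 12.2 to 164, and tendon markers 21.4 to 62.2 against 114 to 171, each lower in the class in all 6 libraries. Deep cells weigh more in such pooled levels, whereas the medians that follow are per cell. Contractile markers had a median of 120 and 119 CPM per class cell in the Day 2 cultures, 311 and 264 in those of Day 7 and 334 and 382 in those of Day 10, against 534 to 1936 in the other cells. Perichondrium markers had a median of 610 and 690 CPM per class cell in the Day 2 cultures, 2517 and 1302 in those of Day 7 and 2263 and 1690 in those of Day 10, against 793 to 4811 in the other cells. Within each of the 6 libraries both lists were lower in the class than in the other cells, by median and in the pooled UMIs. The part of either list in the results was not tested.

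In the whole cultures, *Cytl1* and *Mia* were already well expressed at Day 2, *Cnmd* was low, and *Scrg1*, *Ostn*, *Snorc* and *Ucma* were close to absent. All 7 were highest at Day 7 and lower at Day 10. Since the genes were chosen for a late pattern, this only describes them, but the name late cartilage proteins goes against the data for *Cytl1*, whose Day 10 level was the lowest of the 3 days. Levels are CPM of the library (UMI counts scaled to a fixed total) with TMM factors, given with the SD of 2 libraries. A whole-culture level depends on how many cells express a gene and on the RNA per cell, which this measure does not tell apart.

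*Cytl1* had 54.4 and 54.4 CPM in replicates A and B at Day 2, 103 and 91.3 at Day 7, then 25.9 and 26.6 at Day 10. Its means were 54.4 ± 0.0124, 97.2 ± 8.31 and 26.2 ± 0.508 (SD, n = 2), a log2 fold change of 0.84 (SE 0.06) from Day 2 to Day 7 and of -1.89 from Day 7 to Day 10. The 3 days did not overlap, and both Day 10 cultures lay under both Day 2 cultures. *Mia* had 150 and 140 CPM at Day 2, 1057 and 1071 at Day 7, then 384 and 385 at Day 10. Its fold change was 2.88 on the log2 scale from Day 2 to Day 7 and -1.47 from Day 7 to Day 10, and the Day 10 cultures stayed above the Day 2 cultures by 1.41.

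*Cnmd* had 14.1 and 18.4 CPM at Day 2, 521 and 488 at Day 7, then 213 and 196 at Day 10. Its log2 fold change was 4.96 to Day 7 and -1.30 from Day 7 to Day 10. *Cnmd* was thus present in every culture, but its Day 2 level was 3.22% of its Day 7 mean. *Scrg1* had 1.87 and 2.17 CPM at Day 2, 124 and 123 at Day 7, then 36.7 and 38.2 at Day 10, with a log2 fold change of 5.94 and then -1.72.

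*Snorc* had only 422 and 517 UMIs in the whole Day 2 libraries and 213149 and 204187 in those of Day 7. In CPM, this was 1.83 and 2.54 at Day 2, 1090 and 1099 at Day 7, then 683 and 707 at Day 10. The log2 fold change was 8.97 (SE 0.16) to Day 7 and -0.65 from Day 7 to Day 10. *Ucma* gave 12 and 5 UMIs in all cells of the Day 2 cultures, 8707 and 9536 at Day 7, then 5020 and 4884 at Day 10. These Day 2 counts are so small that the fitted log2 fold change of 10.24 to Day 7 rests on 17 UMIs. *Ostn*, the osteocrin peptide, had 60 and 47 UMIs at Day 2, 9458 and 9097 at Day 7, then 11725 and 8914 at Day 10.

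*Ostn* differed from the other 6 genes in that it hardly declined, with 48.4 and 48.9 CPM at Day 7, then 47.9 and 40.1 at Day 10. Its means of 48.7 ± 0.392 and 44.0 ± 5.49 (SD, n = 2) differed by less than 1 SD of the Day 10 cultures, and its log2 fold change was -0.14 (SE 0.08).

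**Figure D1:**
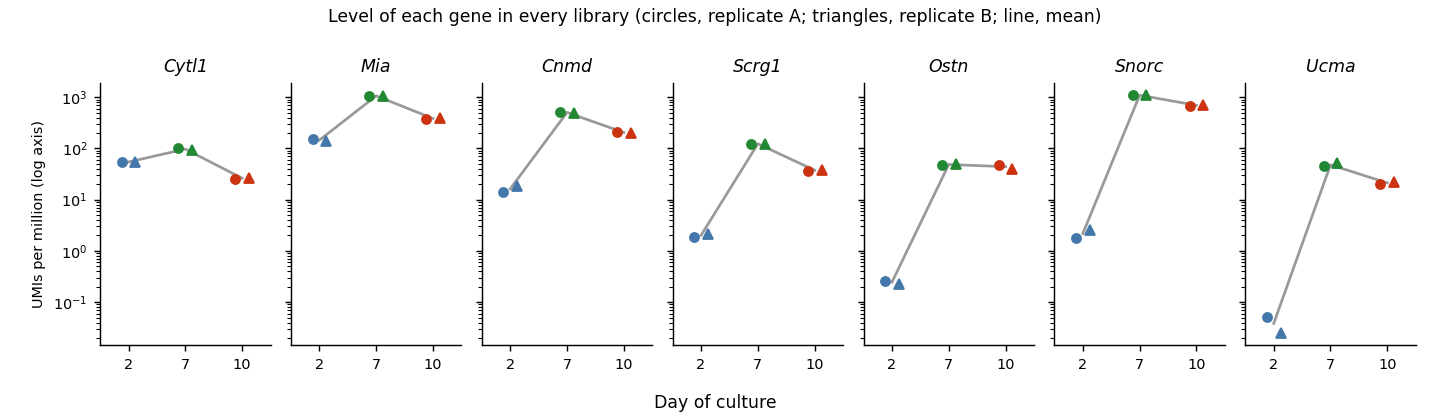
CPM of each gene (TMM-scaled, log axis) against the day of culture, with circles for replicate A, triangles for replicate B and a line through the means. *Ucma* and *Ostn* have means of 0.0383 and 0.245 at Day 2 and of 47.9 and 48.7 at Day 7, whereas *Cytl1* starts at 54.4 and ends at 26.2.

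Since counts of different genes are not compared as levels here, the order of onset was read from the Day 2 level of each gene as a share of its own Day 7 mean. *Cytl1* came first with 56.0% in both cultures. *Mia* followed with 13.2% and 14.1%, then *Cnmd* with 2.80% and 3.64% and *Scrg1* with 1.52% and 1.76% as the lowest and highest culture. *Ostn* stood at 0.475% and 0.534%, *Snorc* at 0.167% and 0.232%, and *Ucma* at 0.0513% and 0.108%. No neighbours in this whole-culture order overlapped between cultures, but the place of *Ucma* rests on 12 and 5 UMIs at Day 2. Inside the cartilage-gene-high cells, the share of *Snorc* was somewhat above that of *Ostn*, but this order is not settled. There *Snorc* had 24.9 and 32.9 CPM at Day 2 against a Day 7 mean of 1773. *Ostn* had 0.670 and 0.982 CPM, from 8 and 12 UMIs, against a Day 7 mean of 73.9. In class cells of at least 10000 UMIs, *Snorc* had 25.9 and 33.8 CPM against a Day 7 mean of 1977. *Ostn* had 0.721 and 1.03 there against 78.5, and the shares of these genes overlapped between cultures. With 3 days sampled, any order among genes that came up between Day 2 and Day 7 is not resolved further.

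The order of decline was another one. At Day 10, *Ostn* kept 90.4% of its Day 7 mean, *Snorc* 63.5%, *Ucma* 44.3%, *Cnmd* 40.6%, *Mia* 36.1%, *Scrg1* 30.4% and *Cytl1* 27.0%. Over all pairs of a Day 10 with a Day 7 culture, *Ucma* ran from 39.97% to 49.4% and *Cnmd* from 37.6% to 43.7%, so these neighbours are not separated. *Scrg1* (29.6% to 31.1%) and *Cytl1* (25.1% to 29.1%) came close without overlapping, and no other neighbours overlapped.

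The share of cells with a UMI was taken at a fixed depth. When every cell was thinned to 1000 UMIs, *Snorc* was seen in 0.182% and 0.200% of Day 2 cells, 28.4% and 28.3% of Day 7 cells, then 18.3% and 18.0% of Day 10 cells. The exact binomial 95% interval was 27.5% to 29.1% for Day 7 replicate B and 17.2% to 18.7% for Day 10 replicate B, and covers counting error only. Without thinning the shares were 1.90% and 1.28%, 52.8% and 53.0%, and 48.7% and 47.3%, with depth differing between cells. *Ucma* was seen in none of 9328 and none of 16486 thinned Day 2 cells, which allows a share of up to 0.0395% and 0.0224%, then in 2.43% and 3.09% at Day 7 and in 1.43% and 1.46% at Day 10. *Mia* was already widespread at the start, with 14.1% and 12.9% at Day 2, 35.1% and 34.7% at Day 7, then 17.4% and 16.6% at Day 10. *Ostn* was seen in 3.68% and 3.05% of Day 7 cells, then 3.73% and 3.2% of Day 10 cells.

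Immune cells, which are not expected to make these proteins, were used to gauge a background. Only immune cells outside the cartilage-gene-high class were taken. Whether their UMIs of the 7 genes came from free RNA in droplets or from doublets was not tested. Among the 108 and 144 immune cells of Day 10, thinned to 1000 UMIs, *Snorc* was seen in 2.78% and 2.08%, and *Ucma* and *Ostn* in none, which allows a share of up to 3.36% and 2.53%. These cells were about as deep as the cultures, with a median of 20624 and 19306 UMIs against 24197 and 22128 for all cells. The cells outside the cartilage-gene-high class showed *Snorc* in 3.4% and 3.95% at Day 10, inside the wide intervals of the immune cells (0.577% to 7.90% and 0.432% to 5.97%). By level, the deep cells with under 1000 CPM of the 6 class genes had 14.2 and 14.4 CPM of *Snorc*, against 20.4 and 17.5 in the immune cells. These deep cells were picked for low cartilage genes, and the immune cells were of any depth with up to 5000 CPM. The comparison therefore cannot tell whether the *Snorc* of these deep cells is background. Deep cells with 2500 to 5000 CPM, still outside the class, had 47.6 and 67.8. In the class itself the share was 46.0% and 45.9%. At Day 7 there were 22 and 29 immune cells, with *Snorc* in 13.6% (2.91% to 34.9%) and 3.45% (0.0873% to 17.8%), too few to set the background closely. At Day 2 there were 21 and 11 immune cells, which held no *Snorc*, *Ucma*, *Cytl1* or *Ostn* UMI but had 142 and 39.0 CPM of *Mia*, against 138 and 129 in the cells outside the class, so *Mia* outside the class is not told apart from background by them. The myogenic cells were more numerous, and *Snorc* was seen in none of 322 and none of 355, which allows a share of up to 1.14% and 1.03%. *Cytl1* was seen in 0.932% and 2.25% of them and *Mia* in 1.55% and 5.35%, against 11.6% and 11.9% for *Mia* in all cells outside the class.

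Next, the genes were followed inside the cartilage-gene-high cells, since the share of such cells itself changed from 8.04% and 4.05% at Day 2 to 70.9% and 59.7% at Day 7, then 35.9% and 33.8% at Day 10. Within the class, *Snorc* and *Ostn* were higher at Day 10 than at Day 7, whereas *Cnmd*, *Mia*, *Scrg1* and *Cytl1* were lower. *Snorc* had 24.9 and 32.9 CPM in class cells of the Day 2 cultures, 1723 and 1823 in those of Day 7 and 2103 and 2346 in those of Day 10. *Ostn* had 0.670 and 0.982, then 72.0 and 75.7, then 126 and 114. For both genes the Day 10 cultures lay above the Day 7 cultures without overlap. The share of all genes without overlap between these days in the class was not counted, so this only describes them. In the whole cultures, by contrast, *Snorc* was lower at Day 10 and *Ostn* differed by -0.14 on the log2 scale (95% interval -0.32 to 0.03).

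*Ucma*, with 67.2 and 79.5 CPM in class cells at Day 7, then 60.1 and 69.9 at Day 10, overlapped between the days. *Cnmd* went from 125 and 134 at Day 2 to 811 and 793 at Day 7, then 650 and 644 at Day 10. *Mia* moved from 656 and 580 to 1590 and 1672 and to 1135 and 1218, and *Scrg1* from 11 and 10.8 to 193 and 200 and to 107 and 122. *Cytl1* was the only one of the 7 whose class level was lower at each later day, from 369 and 360 to 146 and 134 and to 61.0 and 64.4. Its higher level in whole cultures at Day 7 than at Day 2 thus stood beside more class cells with a lower pooled level.

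All 7 genes were higher in the class than in the other cells of every library, which only describes genes picked as those of cartilage proteins. The share of all genes that were higher in the class was not counted. At Day 2 the class values of *Ucma* rest on 5 and 3 UMIs and those of *Ostn* on 8 and 12. *Snorc* stood out with 38.5 and 47.5 times the level of the other cells at Day 2 and 99.7 and 103 times at Day 10. For *Mia* this ratio went from 4.75 and 4.49 times at Day 2 to 11.5 and 10.5 times at Day 7, then 35.8 and 34.9 times at Day 10, as its level outside the class went from 138 and 129 CPM at Day 2 to 138 and 159 at Day 7, then 31.7 and 34.9 at Day 10. The lowest ratios at Day 10 were those of *Cytl1*, with 6.96 and 6.35.

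The class holds cells of very different depth. At Day 7 the 6 class genes took 14663 and 13489 CPM of the whole libraries, above the class limit, and 96.3% and 79.9% of the cells under 3000 UMIs fell in the class against 56.8% and 54.3% of the cells of at least 10000 UMIs. At Day 10 they took 9246 and 8378 CPM, also above the limit, and 58.0% and 47.9% of the shallow cells fell in the class against 28.3% and 26.5% of the deep ones. The levels were therefore also taken in cells of at least 10000 UMIs, an alternative added after the data were seen. There *Snorc* had 1938 and 2016 CPM in class cells at Day 7, then 2272 and 2556 at Day 10, *Ostn* 76.7 and 80.4 and then 131 and 117, and *Cytl1* 150 and 140 and then 57.9 and 63.9. *Cnmd* (863 and 841, then 678 and 677), *Mia* and *Scrg1* were also lower at Day 10 as in the full class, and *Ucma* again overlapped between the days.

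Deep cells were then compared between days at the same level of the cartilage genes. In cells with 5000 to 10000 CPM of the 6 class genes (548 and 472 cells at Day 2, 352 and 341 at Day 7, 278 and 241 at Day 10), *Snorc* had 25 and 28.9 CPM at Day 2, 237 and 346 at Day 7, then 249 and 296 at Day 10. *Snorc* thus differed between Day 2 and the later days among cells in the same range of cartilage gene RNA, and Day 7 and Day 10 overlapped. *Ucma* had 0.475 and 0.280, then 44.8 and 48.4, then 15.0 and 24.1, and *Ostn* had 0.761 and 1.12, then 19.3 and 34.4, then 51.2 and 35.2. Both were thus near absent from such cells at Day 2, and *Ucma* was lower at Day 10 than at Day 7. *Ostn* of Day 10 replicate B was within 1 CPM of Day 7 replicate B. In the next range, from 10000 to 20000, the days overlapped for *Ostn* (84.2 and 90.2 against 122 and 88.4). Above 20000, *Ostn* was higher at Day 10 than at Day 7, with values given below.

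*Cnmd*, by contrast, was at 112 and 119 CPM between 5000 and 10000 at Day 2, 228 and 232 at Day 7, then 117 and 131 at Day 10. The Day 2 and Day 10 cultures thus overlapped for *Cnmd* and only Day 7 stood apart. *Mia* had 616 and 546 at Day 2, 693 and 692 at Day 7, then 379 and 350 at Day 10. *Cytl1* was lower at each later day, from 381 and 357 to 247 and 202 and to 91.4 and 79.2. The genes also differed in how they followed the cartilage genes. In cells with 10000 to 20000 CPM of cartilage genes, *Snorc* had 1188 and 1247 at Day 7 and was lower, with 909 and 1175, in the Day 10 cultures. Between 20000 and 40000 the days overlapped, with 2447 and 2513 against 2444 and 2879, and only above 40000 was Day 10 higher, with 4376 and 4810 against 2718 and 2990. *Ostn* at Day 10 was highest between 20000 and 40000, with 158 and 150 against 82.1 and 84.8 at Day 7. Above 40000 it had 122 and 115 at Day 10 against 62.2 and 56.8 at Day 7. *Cytl1* at Day 7 was highest between 5000 and 10000.

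**Figure D2:**
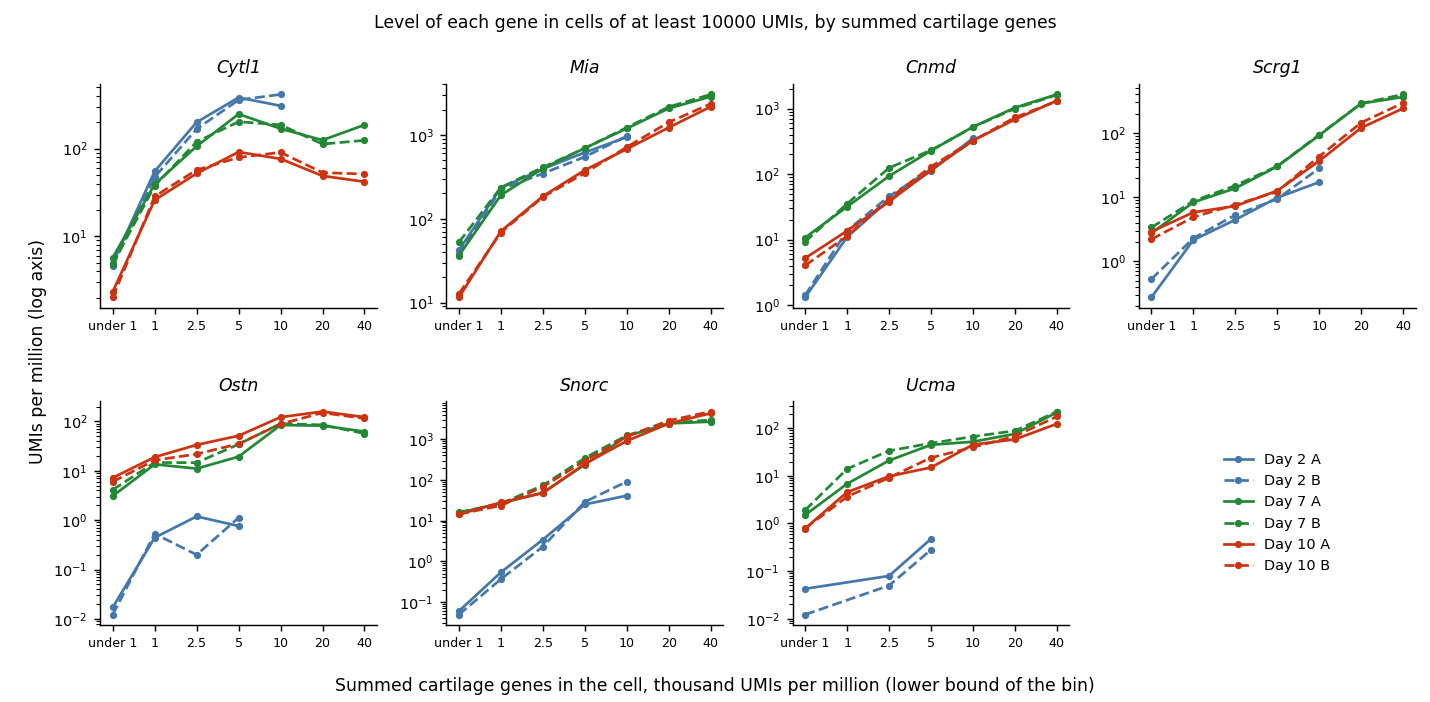
CPM of each gene (log axis) in cells of at least 10000 UMIs, sorted by the summed CPM of the 6 cartilage genes (axis in units of 1000), with 1 line per library. Bins at 0 for *Ucma* and *Ostn* at Day 2 are not drawn; in the bin from 5 to 10, *Snorc* lies at 25 and 28.9 at Day 2 and between 237 and 346 later, whereas the 6 libraries of *Cnmd* lie between 112 and 232.

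To see whether the genes mark different stages of chondrocytes, the class cells of Day 7 and Day 10 were divided by *Ihh* and *Col10a1*, which are not among the 7. *Col10a1*-high cells had at least 1000 CPM of *Col10a1*, *Ihh*-positive cells had at least 1 *Ihh* UMI and were not *Col10a1*-high, and the rest were called neither. Counts were summed per library and state and tested across libraries in edgeR (quasi-likelihood, a term for each library, Benjamini-Hochberg adjustment over 16147 genes). This comparison is within a day and does not use the pattern by day for which the genes were chosen. There were 1089 and 1037 *Ihh*-positive cells at Day 7, 939 and 860 at Day 10, and 148 and 81 *Col10a1*-high cells at Day 10.

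*Snorc* rose and *Ucma* fell from neither to *Ihh*-positive to *Col10a1*-high cells at Day 10, and *Cytl1* was lower in both of the latter states than in neither cells. *Snorc* had 1377 and 1539 CPM in neither cells, 2686 and 3074 in *Ihh*-positive cells and 4316 and 3983 in *Col10a1*-high cells of Day 10 replicates A and B. *Ucma* had 80.8 and 96.1, then 41.8 and 46.7, then 10.9 and 13.9. The 3 states did not overlap for either gene. The log2 fold change against neither cells was 1.13 (SE 0.06, adjusted p = 9.124e-12, edgeR) in *Ihh*-positive and 1.62 (SE 0.06, adjusted p = 2.807e-14, edgeR) in *Col10a1*-high cells for *Snorc*. For *Ucma* it was -0.85 (SE 0.05, adjusted p = 1.011e-10, edgeR) and -2.74 (SE 0.13, adjusted p = 6.192e-13, edgeR).

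*Cytl1* was at 79.4 and 91.9 CPM in neither cells of Day 10, 44.2 and 35.4 in *Ihh*-positive cells and 19.1 and 55.5 in *Col10a1*-high cells, where replicate B lay above its *Ihh*-positive cells and replicate A below. It fell by 0.94 on the log2 scale in *Ihh*-positive and by 1.25 in *Col10a1*-high cells (adjusted p = 3.731e-06 and 0.0001801, edgeR), calls that DESeq2 did not make (adjusted p = 0.17 and 0.0925). The *Col10a1*-high value was -0.62 without Day 10 replicate A and -1.94 without replicate B. *Cnmd* had 545 and 518, 744 and 768, and 907 and 775 in the same order. It rose by 0.66 and by 0.77 (adjusted p = 3.65e-09 and 9.61e-10, edgeR). *Ostn* had 102 and 86.1, 152 and 142, and 148 and 133, and rose by 0.80 and by 0.69 (adjusted p = 4.408e-11 and 3.201e-08, edgeR).

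*Scrg1* and *Mia* rose in *Ihh*-positive cells of Day 10 by 0.73 and by 0.54 (adjusted p = 4.412e-09 and 3.124e-07, edgeR). In *Col10a1*-high cells they were higher than in neither cells by 0.25 and by 0.27 (adjusted p = 0.02855 and 0.002511, edgeR), but with deep cells alone these differences were 0.10 (adjusted p = 0.396, edgeR) and 0.16 (adjusted p = 0.062, edgeR). Without Day 10 replicate A, the difference of *Scrg1* was -0.0002886 and that of *Mia* 0.13. At Day 10, then, 5 of the 7 genes were higher and 2 lower in *Ihh*-positive cells, where 22.5% of all genes tested were called higher and 21.3% lower. The same 5 and 2 held in *Col10a1*-high cells, where 15.2% of all genes were called higher and 16.1% lower.

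At Day 7 the same contrast of *Ihh*-positive with neither cells had 5 genes higher and 1 lower, against 22.5% of all genes called higher and 20% lower. *Snorc* had 1464 and 1577 CPM in neither and 2357 and 2353 in *Ihh*-positive cells, a log2 fold change of 0.72 (SE 0.06, adjusted p = 8.111e-09, edgeR). *Ucma* had 80.0 and 98.7 against 36.8 and 38.8, a fold change of -1.14 (SE 0.05, adjusted p = 3.775e-12, edgeR). *Scrg1*, *Ostn* and *Mia* rose by 0.56, by 0.57 and by 0.32 (adjusted p = 1.057e-07, 9.31e-09 and 0.0001772, edgeR). *Cytl1* differed by -0.12 with a 95% interval from -0.35 to 0.10 (adjusted p = 0.3844, edgeR). The higher call of *Cnmd*, 0.14 (adjusted p = 0.03113, edgeR), was lost in cells of at least 10000 UMIs, at -0.02 (adjusted p = 0.789, edgeR), as was that of *Mia*, at 0.10 (adjusted p = 0.215, edgeR), which left 3 genes higher. The call of *Cnmd* was also lost without either Day 7 culture (adjusted p = 0.488 and 0.122, edgeR).

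*Ihh*-positive cells were much deeper than neither cells, with a median of 31496 and 32864 UMIs against 3735 and 5138 at Day 7 and of 35967 and 33162 against 7065 and 5608 at Day 10. Among cells of at least 10000 UMIs, *Ihh*-positive cells were still deeper, with a median of 35065 and 34534 UMIs against 24524 and 24422 at Day 7 and of 39704 and 36321 against 27869 and 26483 at Day 10. In this range *Snorc* rose in *Ihh*-positive cells by 0.48 at Day 7 and by 0.91 at Day 10 (adjusted p = 2.75e-05 and 3.19e-08, edgeR), and *Ucma* fell by 1.37 and by 1.08 (adjusted p = 3.12e-10 and 1.81e-09, edgeR). *Ostn* rose by 0.41 and by 0.69 (adjusted p = 4.13e-06 and 1.35e-08, edgeR) and *Scrg1* by 0.31 and by 0.48 (adjusted p = 2.2e-05 and 1.17e-06, edgeR).

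The size of the *Ihh*-positive difference itself changed between the days for 5 of the 7 genes. Day 10 minus Day 7 was 0.41 for *Snorc*, 0.52 for *Cnmd*, 0.30 for *Ucma* and 0.23 for *Ostn* (adjusted p = 0.00351, 0.0001199, 0.01639 and 0.0414, edgeR interaction) and -0.82 for *Cytl1* (adjusted p = 0.003649). Of all genes tested, 3.44% had a higher and 2.86% a lower difference at Day 10. For *Ucma* the positive sign means that it fell less at Day 10. These 4 higher and 1 lower became 2 and 0 with DESeq2, and 1 and 0 without the term for the library. The 4 higher became 0 with *Col10a1*-high cells taken from 500 CPM, and 2 with the class from 10000 CPM. Without Day 7 replicate B, the calls of *Snorc*, *Ucma* and *Ostn* were lost (adjusted p = 0.106, 0.486 and 0.201, edgeR). That of *Ostn* was also lost without Day 7 replicate A and without Day 10 replicate B (adjusted p = 0.429 and 0.0503, edgeR). The values of *Scrg1* (0.17, unadjusted 95% interval 0.00 to 0.34) and *Mia* (0.22, 0.05 to 0.40) did not pass (adjusted p = 0.2909 and 0.1478, edgeR).

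*Col10a1*-high cells were rare at Day 7, with 25 in replicate A and 10 in replicate B. Replicate A alone reached the minimum of 20 cells, and its values are given with no test. *Snorc* was at 783 CPM and *Cnmd* at 118, both under the neither cells of that culture at 1464 and 798, and *Cytl1* was at 330, above its 156. No *Ucma* UMI was found among the 287489 UMIs of these cells. At Day 2 there were 246 and 238 *Ihh*-positive and 514 and 428 neither cells, and their test comes from a fit of all 6 libraries, added after the data were seen. *Cytl1* had 419 and 410 CPM in *Ihh*-positive and 332 and 316 in neither cells, a log2 fold change of 0.41 (SE 0.12, adjusted p = 0.0197, edgeR), where that of Day 10 was negative. *Cnmd* had 83.8 and 127 against 156 and 140, and *Mia* 492 and 530 against 780 and 625. Both were lower in *Ihh*-positive cells of Day 2, with log2 fold changes of -0.43 and -0.39 (adjusted p = 0.007762 and 0.0008223, edgeR), where those of Day 10 were positive. The difference between Day 2 and Day 10 was not tested. *Snorc* was lower in *Ihh*-positive cells in replicate A (22.7 against 26.5) and higher in replicate B (42.3 against 24.6), and did not pass (0.40, adjusted p = 0.1337, edgeR). *Scrg1*, *Ucma* and *Ostn* did not pass either (adjusted p = 0.3328, 0.9176 and 1, edgeR), the latter pair with 10 UMIs or fewer in each sum.

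**Figure D3:**
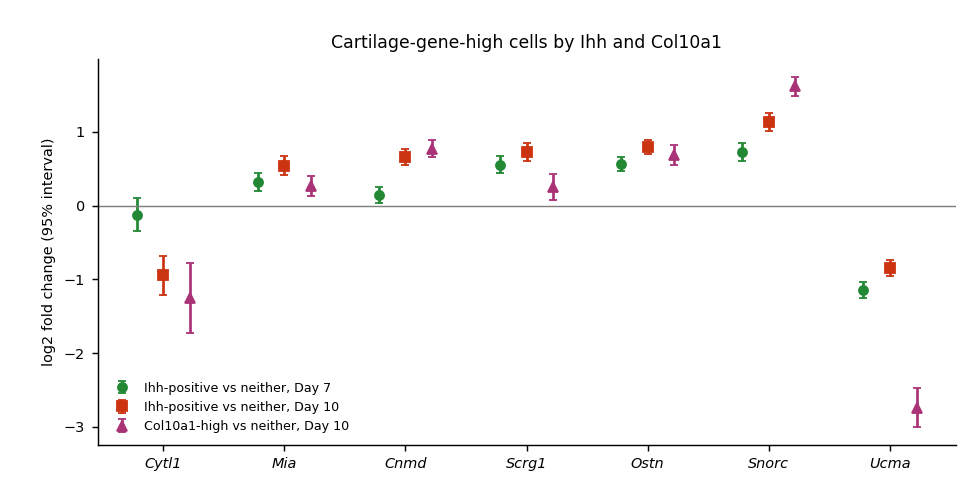
log2 fold change of each gene between states of cartilage-gene-high cells (edgeR, points) with its 95% interval (bars), for *Ihh*-positive against neither at Day 7 and Day 10 and *Col10a1*-high against neither at Day 10. *Snorc* reaches 1.62 and *Ucma* -2.74 in *Col10a1*-high cells, and *Cytl1* goes from -0.12 at Day 7 to -0.94 at Day 10 in *Ihh*-positive cells.

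Overlap was examined within single cells of the class. Each cell was thinned to 3000 UMIs, which left out 79 and 70 shallower cells at Day 2, 4002 and 2323 at Day 7, then 477 and 521 at Day 10. On average a Day 2 cell held UMIs of 1.46 (replicate A) or 1.53 (replicate B) of the 7 genes, a Day 7 cell of 2.88 or 2.87, and a Day 10 cell of 2.42 or 2.46. At least 4 genes were found together in 0.734% and 2.85% of the cells at Day 2, 38.2% and 38.5% at Day 7, then 25.8% and 26.5% at Day 10. All 7 were found in 0.0540% and 0.0396% at Day 7, then 0.0922% and 0.0704% at Day 10, and none of them in 7.25% and 7.73% at Day 7, then 12.3% and 12.3% at Day 10. Among cells of at least 10000 UMIs, thinned alike, the mean was 3.41 and 3.48 at Day 7, then 2.90 and 3.0 at Day 10.

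**Figure D4:**
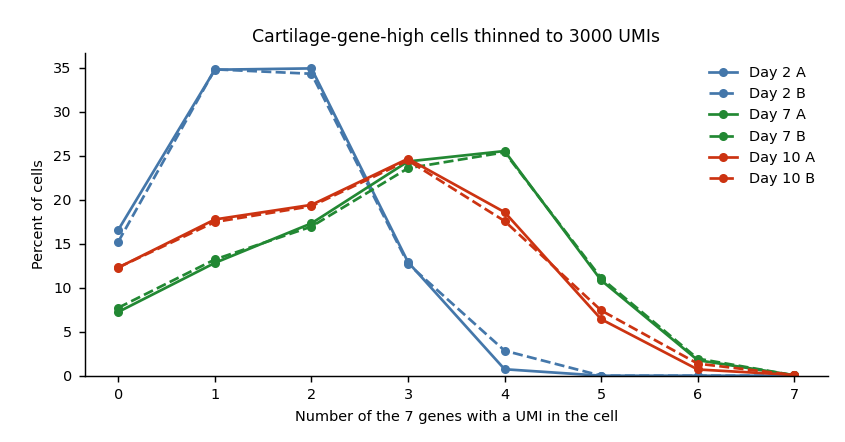
Percent of cartilage-gene-high cells (thinned to 3000 UMIs) by the number of the 7 genes with a UMI, with 1 line per library. Day 2 peaks at 1 and 2 genes with 34.8% and 34.9% in replicate A, Day 7 at 4 genes with 25.6% in replicate A, and Day 10 at 3 genes with 24.7% in replicate A.

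For each pair of genes, the number of cells with both was divided by the number that the product of the 2 shares would give. In the 4 libraries of Day 7 and Day 10, 15 of the 21 pairs were above 1 in every library, 2 were below 1 in every library and 4 were mixed. The ratio was not computed for pairs of other genes, so these counts, and those in deep cells below, only describe the 7. *Snorc* and *Mia* were found together in most cells that had either. At Day 7, 89.9% and 89.2% of *Snorc* cells had *Mia* and 76.9% and 78.7% of *Mia* cells had *Snorc*, with ratios of 1.15 and 1.16. At Day 10, 81.1% and 80.7% of *Snorc* cells had *Mia*. In cells of at least 10000 UMIs the ratio of this pair was 1.03 to 1.09 over the 4 libraries, close to the product of the shares.

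The highest ratios were those of *Ucma* with *Scrg1*, 1.60 and 1.58 at Day 7, then 2.40 and 2.62 at Day 10. Of the *Ucma* cells, 42.0% and 43.3% had *Scrg1* at Day 7, then 36.3% and 43.4% at Day 10, whereas 26.2% and 27.4% and then 15.1% and 16.6% of all class cells had it. In reverse, 17.4% and 18.9% of *Scrg1* cells had *Ucma* at Day 7, then 20.2% and 23.6% at Day 10. *Ucma* and *Ostn* were found together somewhat less often than the product of their shares. At Day 7, 10.1% and 12.9% of *Ucma* cells had *Ostn* against 14.3% and 14.6% of all class cells, and at Day 10, 17.9% and 18.4% against 21.1% and 20.9%. The ratios for this pair were 0.711 and 0.883 at Day 7, then 0.850 and 0.877 at Day 10. The other pair below 1 was *Cnmd* with *Cytl1*, from 0.854 to 0.989.

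Cells of the class differ in depth before thinning, and the deeper ones were looked at alone. In cells of at least 10000 UMIs, 12 pairs were above 1 in all 4 libraries and 6 below, and *Ucma* with *Ostn* ran from 0.656 to 0.760 and *Ucma* with *Scrg1* from 1.23 to 1.96. The pairs below 1 there were *Ucma* with *Ostn*, *Scrg1* with *Ostn*, and *Cytl1* with *Snorc*, *Cnmd*, *Scrg1* and *Ostn*. Without thinning all 21 pairs lay above 1, from 1.16 to 2.37. At Day 2, *Snorc* was seen in 27 and 45 class cells, of which 24 and 43 had *Mia* and 17 and 30 had *Cytl1*.

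**Figure D5:**
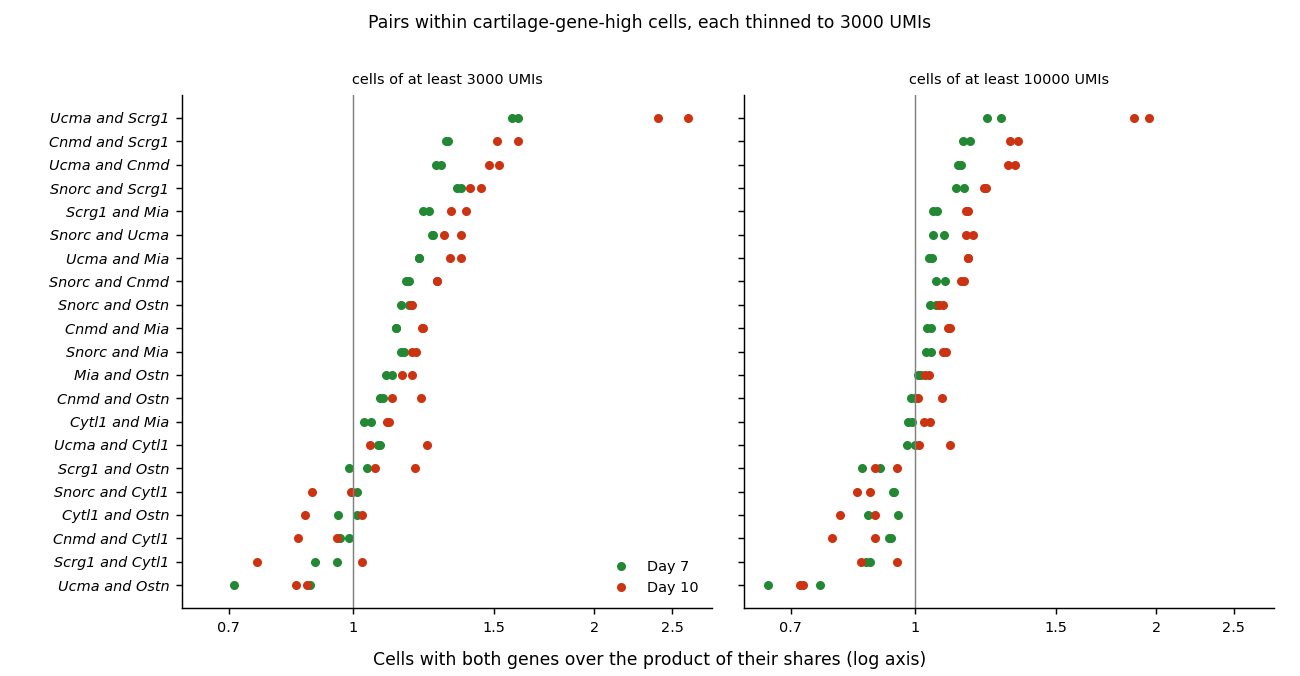
Number of cartilage-gene-high cells with both genes of a pair over the number from the product of their shares (log axis), for each Day 7 and Day 10 library, in cells of at least 3000 UMIs and of at least 10000 UMIs, all thinned to 3000. *Ucma* with *Scrg1* lies between 1.58 and 2.62 in the first set and between 1.23 and 1.96 in the deeper set, and *Ucma* with *Ostn* lies below 1 in all 4 libraries of both.

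Across all 46165 cells of Day 7 and Day 10, each of the 7 was compared with every gene outside the group. The measure was Pearson's r of log-normalised UMIs across the cells of a library, averaged over 4 libraries and compared for 12917 genes; cells share a library and vary in depth, so these are descriptions. Outside the 7, *Snorc* was most like *Matn1* (0.662), *Col9a3* (0.658) and *Hapln1* (0.614). Outside the 7, *Mia* and *Cnmd* were most like *Col9a3* (0.693 and 0.666), followed by *Col9a2* and *Matn1* (0.625 and 0.624) for *Mia* and by *Matn1* and *Col9a2* (0.647 and 0.631) for *Cnmd*. Among those same outside genes, *Scrg1* was most like *Epyc* (0.519), a leucine-rich repeat proteoglycan of cartilage, then *S100b* (0.506) and *Matn3* (0.504).

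*Ucma* reached lower values outside the 7, with *Col9a3* (0.335), the Notch-like membrane protein gene *Dlk1* (0.317) and *Matn3* (0.313). *Cytl1* was weakly related to any gene, with *Col9a3* (0.290), *Lbhd2* (0.282) and *Col2a1* (0.260). *Ostn* was led by genes that are not of the matrix, *Cdsn* (0.421), known as an adhesive protein of the skin, and *Steap1* (0.405), before *Col9a3* (0.356). Among the 7, *Snorc* with *Mia* (0.681), *Cnmd* with *Mia* (0.676) and *Snorc* with *Cnmd* (0.670) were most alike, and *Ucma* with *Ostn* least (0.0663). *Scrg1* was closer to *Snorc* (0.594), *Cnmd* (0.567) and *Mia* (0.563) than to any gene outside the 7, and so was *Ucma* to *Scrg1* (0.406), *Mia* (0.403) and *Cnmd* (0.401). *Snorc* was closer to *Mia* and *Cnmd*, and *Cnmd* to *Mia* and *Snorc*, than to any other gene.

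The wider cartilage program moved between the same days. Of 32 genes on 4 lists (transcription factors, fibril collagens, aggregating matrix and growth plate), 29 were higher and 1 lower at Day 7 than at Day 2 (edgeR, adjusted p under 0.05), where 35.7% of all 18987 genes tested were called higher and 34.6% lower. From Day 7 to Day 10, 11 were higher and 18 lower, against 26.3% and 25.9% of all genes, and from Day 2 to Day 10, 28 were higher and 4 lower, against 39% and 38.2%. The median log2 fold changes were 2.99, -0.42 and 2.59, and those over all genes were 0.01, -0.02 and 0.00. The lists were drawn up with earlier results of these libraries known.

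All 7 fibril collagens rose from Day 2 to Day 7 and all 7 fell from Day 7 to Day 10. From Day 2 to Day 10 they ran from 1.0 for *Col9a1* to 4.45 for *Col11a2*. The aggregating matrix genes ran from 0.84 for *Matn4* to 9.22 for *Comp*, and the growth plate list from -0.66 for *Gli1*, a target of hedgehog signalling, to 12.00 for *Ibsp*, a bone matrix protein. On that last list 9 of 12 genes rose from Day 7 to Day 10 and 1 fell. The 3 transcription factors were all lower at Day 10 than at Day 2, from -1.04 for *Sox5* to -0.73 for *Sox6*.

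The relatives and partners of the 7 had patterns of their own. *Nppc*, the C-type natriuretic peptide whose clearance *Ostn* can slow, had 0.437 and 0.305 CPM at Day 2, 3.90 and 4.63 at Day 7, then 0.225 and 0.149 at Day 10. It rose by 3.51 and then fell by 4.50 on the log2 scale (adjusted p = 9.257e-07 and 5.902e-06, edgeR). *Npr3*, the receptor bound by *Ostn*, rose from 9.23 and 8.77 to 16.5 and 16.7 and was at 14.4 and 14.5 at Day 10. *Npr2*, the signalling receptor for the C-type peptide, rose from 7.91 and 8.73 to 24.2 and 21.7 and stood at 21.4 and 20.4, a change from Day 7 that did not pass (adjusted p = 0.1359, edgeR). *Npr1* stayed under 1 CPM in every library.

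*Otor*, a relative of *Mia*, fell from 8.04 and 7.13 CPM at Day 2 to 2.38 and 2.77 at Day 7, then 1.98 and 2.20 at Day 10. It was also lower in *Ihh*-positive than in neither cells of Day 10, with a log2 fold change of -1.90 (adjusted p = 3.842e-06, edgeR), while *Mia* was higher. *Mia2* and *Mia3*, which act in the export of large cargo from the endoplasmic reticulum, moved less. *Mia3* was at 72.6 and 71.9, 116 and 104, and 93.8 and 88.5, and *Mia2* at 63.2 and 62.5, 75.0 and 71.7, and 63.0 and 62.6. *Tnmd*, the tendon relative of *Cnmd*, went from 11.6 and 16.0 to 16.3 and 19.1 and to 28.7 and 26.0, and its Day 10 level was above Day 7 by 0.63 (adjusted p = 0.00518, edgeR), where that of *Cnmd* was lower. Of the 8 genes, 6 were higher and 2 lower at Day 7 than at Day 2, against 35.7% and 34.6% of all genes, and 1 was higher and 5 lower at Day 10 than at Day 7, against 26.3% and 25.9%.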

How the data were processed

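Single-cell libraries of the 10x 3′ kit were analysed from 2 DID cultures a day. The authors deposited a raw UMI count matrix for each library, made by Cell Ranger 6.1.2 with STAR on GRCm38 (mm10), and the submitters' processing notes also name Seurat 4.1.0. Limits on UMIs, on 200 to 7500 detected genes and on mitochondrial and ribosomal shares were applied per library as the study states them. Doublets were not removed.

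Counts were summed per library and tested with edgeR 4.0.16 (filterByExpr, TMM, quasi-likelihood test; R 4.3.3, limma 3.58.1), 6 libraries in a fit, or summed per Day 7 or Day 10 library and state (11 sums of at least 20 cells) with the library as a term. The fits had a common biological coefficient of variation of 0.0689 (days) and 0.0321 (states), with 3 residual degrees of freedom in each fit. Prior degrees of freedom, the weight of the spread shared across genes, were 5.48 (days) and 16.73 (states), so p-values rest largely on that shared spread. In the day fit they measure the spread between cultures. In the state fit the library term takes out differences between cultures, and they measure how the state differences vary between cultures. Levels within the class and states are CPM of the pooled UMIs of their cells, without TMM factors. DESeq2 1.42.0, other size factors, filters, limits and left-out libraries were alternatives. Thinning drew UMIs without replacement with fixed seeds. On simulated data the Day 10 against Day 7 test recovered 72.4% of 2-fold and 97% of 4-fold changes, over 18987 genes.

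The 7 genes, the lists, the limits and the tests were chosen with earlier results of these data known. Genes named are the 7, for each of them the 3 most correlated others, the highest and lowest of each list by Day 10 against Day 2, and all relatives. Replicate letters did not pair the cultures, since the differences between A and B correlated by -0.0164, -0.0574 and -0.00765 between days. Promoters are from RefSeq, gene positions from GENCODE. Proteins were not analysed here.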

Additional observations from a re-analysis of the deposited data

Results flagged for a closer look

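The difference between *Ihh*-positive and neither cells was itself different at Day 7 and Day 10 for 5 genes, by the interaction term of the edgeR fit (n = 2 libraries a day). Day 10 minus Day 7 was 0.41 for *Snorc* (0.72 at Day 7 and 1.13 at Day 10), 0.30 for *Ucma* (-1.14 and -0.85), 0.52 for *Cnmd* (0.14 and 0.66), -0.82 for *Cytl1* (-0.12 and -0.94) and 0.23 for *Ostn* (0.57 and 0.80), on the log2 scale. These calls held in 12, 9, 14, 13 and 6 of 15 alternatives, in that order, and the direction of each held in all 15. The 15 include fits with 1 library left out, which leave 1 culture at a day and cannot measure its spread between cultures. A call that held in such a fit adds little. No group has 4 or more libraries, so no library could be tested as standing apart.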

How the results depend on the processing

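Replicate letters do not pair the cultures, and with them as a block in the day fit no count changed by more than 1.5 times (Day 7 against Day 2: 29 of 32 list genes higher and 1 lower without the block, and 29 higher and 1 lower with it). The 1 lower list gene became 2 with DESeq2 and 0 to 2 with 1 library left out.

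*Snorc*, *Ucma*, *Scrg1* and *Ostn* kept their Day 7 calls, the 6 genes other than *Cytl1* their Day 10 calls in *Ihh*-positive cells, and *Snorc*, *Ucma*, *Cnmd* and *Ostn* theirs in *Col10a1*-high cells, in all 15 alternatives. Fits with 1 library left out are among the 15, with the limit given above. *Cnmd* at Day 7 turned to -0.06355 with the class from 10000 CPM and to -0.02092 in deep cells, and *Scrg1* in *Col10a1*-high cells to -0.0002886 without Day 10 replicate A (0.4233 without replicate B). With DESeq2, 1 gene was lower in *Ihh*-positive and 1 in *Col10a1*-high cells of Day 10 in place of 2, and 2 genes had a higher and 0 a lower interaction in place of 4 and 1. Without the library as a block the interaction was higher for 1 and lower for 0. With the class from 10000 CPM, 3 genes were higher in *Ihh*-positive cells of Day 7, 3 in *Col10a1*-high cells and 2 in the interaction. With *Col10a1* from 500 CPM, 3 were higher at Day 7 and 0 in the interaction, and with 2000, 3 were higher in *Col10a1*-high cells. In deep cells 3 were higher in *Ihh*-positive cells of Day 7 and 3 in *Col10a1*-high cells. With no filter on low counts, 2 were lower at Day 7. Leaving out 1 library gave 1 to 6 higher interactions, the lowest without Day 7 replicate B, and 1 to 2 genes lower at Day 7, with 2 without either Day 10 replicate. The cause of these changes was not tested.

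Over all genes, DESeq2 called 2057 higher and 1638 lower in *Ihh*-positive cells of Day 7 (edgeR 3627 and 3233), 2431 and 2027 at Day 10 (3639 and 3433), and 244 and 89 in the interaction (555 and 461). Without the library term the interaction had 223 and 160. In deep cells the counts were 2111 and 1812 at Day 7, then 2461 and 2216 at Day 10. With 1 Day 7 library left out, Day 7 had 2075 and 1836 or 2147 and 1811. The interaction had 235 and 191 without Day 7 replicate A, 284 and 205 without replicate B, and 1074 and 730 without Day 10 replicate A, and *Col10a1*-high cells had 1771 and 1637 without the latter. A state left with 1 library is assumed to vary as the others do. Of 42 levels by day recomputed without TMM factors or with every deposited barcode, 28 moved by at least the SD between replicates. Of 231 fold changes by day, 39 moved by more than the SE of the main fit. Of 126 overlap ratios recomputed, 92 moved by at least the SD between the libraries of a day. Of 84 shares, 82 left the exact binomial interval of the share at 1000 UMIs, which covers counting error only. Their alternatives, thinning to 3000 UMIs or none, keep more UMIs per cell, which by itself raises a share. With 2 libraries a day, the smallest fold changes are not resolved.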

Other observations

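For marker genes of other cell types, the values are edgeR log2 fold changes of Day 10 over Day 2 in the whole cultures, for the highest and lowest gene of each list. The myogenic regulators *Myf5* and *Myod1* were at -4.89 and -7.24, and the immune genes *Fcer1g* and *C1qb* at 3.55 and 1.76. Of the tendon genes, *Tnmd* was at 0.99 and *Scx* at -0.84, and of the perichondrium genes, *Thbs2* was at 3.57 and *Fbn2* at -0.56. The contractile genes *Acta2* and *Cnn1* were at 0.77 and 0.22, and of the 6 genes that set the class, *Hapln1* was highest with 4.84. There were 21 and 11 immune cells in the Day 2 cultures and 109 and 144 in those of Day 10, and 322 and 355 myogenic cells in the former against 1 and 4 in the latter.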
